A study of Mus musculus with 7 samples.

Results

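Alternative splicing was examined in 4 genes of histone lysine methylation, the methyltransferase genes Ezh2 and Ehmt2 and the demethylase genes Kdm5a and Kdm5c, in the epithelium of the mouse cervical loop, a niche of dental epithelial progenitors at the base of the ever-growing incisor. All rows of the authors' table that carry one of these gene names were taken, which gave 5 splicing events of 278 in the table and 4 gene names of 228. All 5 are cassette exons, that is, exons that are either kept or skipped as a unit, among 173 listed cassette exons. The events were selected on their difference between the groups, because the table holds only events with a DRIMSeq corrected p below 0.1 (the largest is 0.0979), where DRIMSeq compares the proportions of transcript forms. The differences between groups below are therefore a description of listed exons, without a test, and events outside the table were not analysed here.

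The 7 RNA-seq libraries came from K14CreER;Srsf1fl/fl mice of 8 to 10 weeks. The 3 control libraries (replicates 1, 2 and 7) were from mice without tamoxifen induction, and the 4 mutant libraries (replicates 3, 4, 5 and 9) from mice induced with tamoxifen, which lets the CreER recombinase of keratin 14-expressing epithelium delete the floxed Srsf1 sequence. Both groups carry the transgene and the floxed alleles, so an effect of tamoxifen and an effect of the deletion cannot be told apart, and cells without keratin 14 promoter activity keep Srsf1. The value of each event is its percent spliced in (PSI), the share of its reads, in percent, that support inclusion. The series text states 648000000 uniquely aligned reads in all, as an estimate. It also speaks of 4 conditions, whereas the labels of the 7 libraries give the 2 groups above, so what that total covers is uncertain. Depth is unknown for single libraries and events, and the precision that counting allows cannot be stated. The labels do not state whether libraries came from separate animals, so SDs measure the spread between these libraries. As the RNA came from bulk tissue, a change of splicing within cells and a change in the mix of cells cannot be told apart. None of 18 marker genes of dental epithelium, mesenchyme, blood and vessels has a listed event, and a PSI table holds no expression level, so the labelled tissue could not be checked.

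SRSF1 is an SR protein that binds purine-rich sequence in exons and usually promotes their inclusion. Methyl groups on the lysines of histone H3 are set by methyltransferases, most of which use a SET domain, and are removed by demethylases, many of which use an iron-dependent JmjC domain. EZH2 is the catalytic subunit of Polycomb repressive complex 2, and EHMT2, also called G9a, is the main methyltransferase for repressive methylation of euchromatin. KDM5A and KDM5C belong to one family of demethylases that remove the methyl marks of active promoters, and Kdm5c lies on the X chromosome.

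The sequences of the 5 exons are shown because length, frame and base content are independent of the PSI values. They were read from GENCODE M21 transcripts (GRCm38), 5′ to 3′ on the RNA strand. Capitals mark GGAGA, a purine-rich word known from SRSF1 binding studies. The Ezh2 exon lies at chr6:47541845-47541970 (minus strand), the Ehmt2 exon at chr17:34903323-34903478 (plus strand), the Kdm5a exon at chr6:120381535-120381669 (plus strand), and the Kdm5c exons at chrX:152239630-152239752 and chrX:152270694-152270831 (plus strand).
Ezh2 exon 14: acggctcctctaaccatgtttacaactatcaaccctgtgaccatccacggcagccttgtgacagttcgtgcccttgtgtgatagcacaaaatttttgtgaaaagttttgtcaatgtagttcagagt
Ehmt2 exon 6: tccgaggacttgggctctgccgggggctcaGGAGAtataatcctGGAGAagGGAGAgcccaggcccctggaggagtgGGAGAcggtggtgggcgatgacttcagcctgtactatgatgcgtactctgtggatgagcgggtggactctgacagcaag
Kdm5a exon 5: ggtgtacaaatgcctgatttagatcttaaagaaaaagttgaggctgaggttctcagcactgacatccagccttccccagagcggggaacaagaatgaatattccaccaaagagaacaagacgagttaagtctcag
Kdm5c exon 3: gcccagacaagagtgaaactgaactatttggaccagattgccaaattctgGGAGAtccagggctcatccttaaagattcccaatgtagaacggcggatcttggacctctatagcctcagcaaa
Kdm5c exon 22: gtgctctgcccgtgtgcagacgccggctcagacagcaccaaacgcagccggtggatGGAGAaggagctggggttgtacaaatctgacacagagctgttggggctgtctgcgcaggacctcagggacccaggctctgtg

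Inclusion was higher in the mutant libraries for the exons of Ezh2 and Kdm5a, and lower for the exon of Ehmt2 and both exons of Kdm5c. Control and mutant libraries did not overlap in 5 of the 5 events. The same holds for 95.7% of all 278 listed events, with the mutant higher in 16.5% and lower in 79.1%, so separate groups are the usual state in this selected table and nothing is read from the count. The median absolute difference of group means was 10.8 points for the 5 exons, 13.5 points for the 173 listed cassette exons and 14.1 points for all listed events. By the corrected p-values of the authors' deposited table, DRIMSeq put 3 of the 5 events below 0.05 and JuncBASE 0 of them (0.226 to 0.464). Of all listed events, 77.0% have a DRIMSeq corrected p below 0.05. The share of all listed events below 0.05 by JuncBASE is not given here, so nothing is read from its count. By JuncBASE, the listed event of the targeted gene Srsf1 has a corrected p of 0.328.

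**Figure D1:**
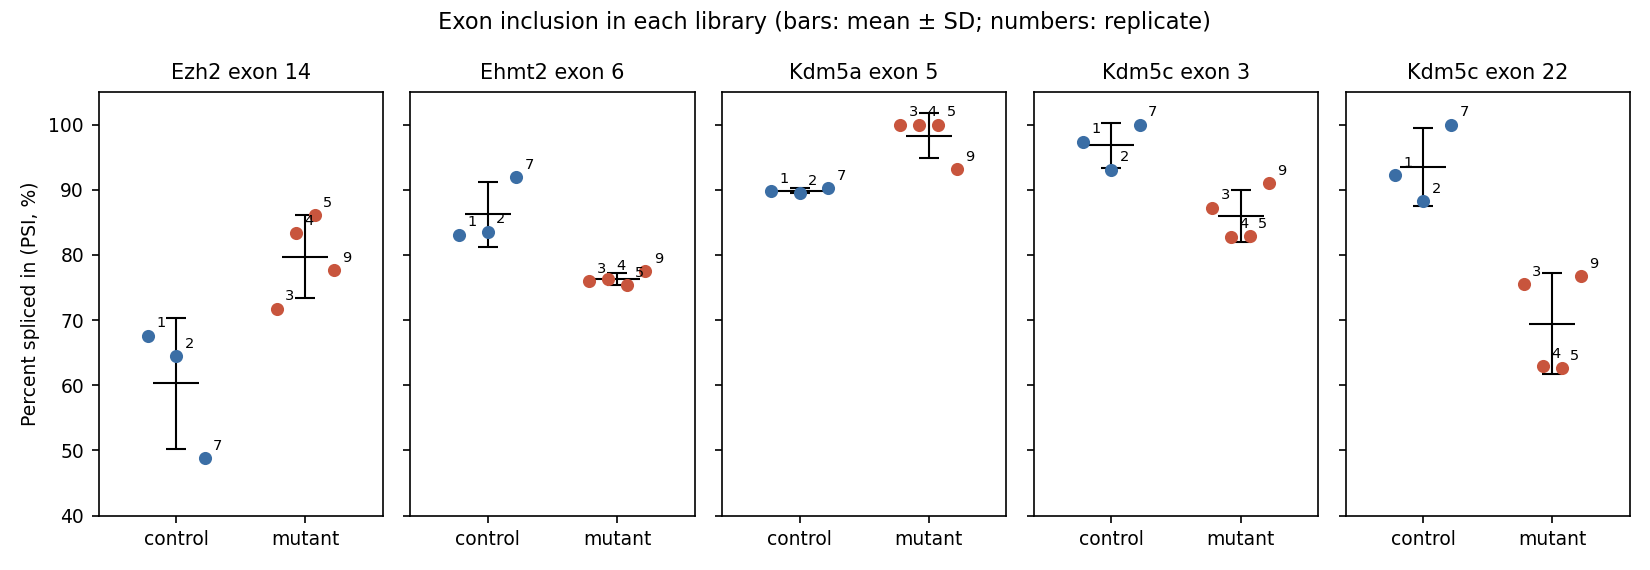
PSI in percent of each exon in the 3 control (blue) and 4 mutant (red) libraries, with replicate numbers at the points and bars for the mean ± SD; the axis starts at 40%. The mutant points lie above the controls for Ezh2 and Kdm5a and below them for Ehmt2 and both Kdm5c exons.

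Ezh2 exon 14 had PSI values of 67.62%, 64.42% and 48.86% in control libraries 1, 2 and 7. The mutant libraries 3, 4, 5 and 9 had 71.76%, 83.33%, 86.09% and 77.66%, all above the highest control. Group means were 60.3% ± 10.0 (SD, n = 3) and 79.7% ± 6.36 (SD, n = 4), a difference of 19.4 points (SE 5.11, from a limma fit over all listed events). Control 7 was the lowest library, and without it the difference was 13.7 points. DRIMSeq's corrected p is 0.0368 for this exon in the authors' deposited table.

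This Ezh2 exon (ENSMUSG00000029687.16) is the 14th of 20 in the longest coding transcript. Its 126 nucleotides encode residues 511 to 553 of 746, the codons of the first and last of which are shared with the neighbouring exons. The stretch lies in the cysteine-rich pre-SET (CXC) region, ahead of the SET domain, whose Asn-His-Ser motif is at residues 688 to 690. Of the 41 codons that lie wholly in the exon, 7 encode cysteine (17.1%), against 4.69% of residues in the whole protein. Skipping keeps the reading frame and leaves a protein of 704 residues with no stop codon added, and the annotated transcript Ezh2-202 has exactly that coding sequence. An annotated transcript with retained introns also gives the splice sites of this exon on the minus strand, printed for context with exon bases in capitals. Of the last 25 intron bases before the exon, 16 are C or T.
Ezh2 exon 14 acceptor, chr6:47541966-47541995: gctgcgtgctgttatctttactcagACGGC
Ezh2 exon 14 donor, chr6:47541835-47541849: AGAGTgtaagtattt

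Ehmt2 exon 6 had PSI values of 83.13%, 83.56% and 91.95% in control libraries 1, 2 and 7. The mutant libraries 3, 4, 5 and 9 had 75.96%, 76.36%, 75.36% and 77.50%. The 4 mutants lay close together, 5.63 points below the lowest control, while control 7 stood above the other controls. Group means were 86.2% ± 4.97 (SD, n = 3) and 76.3% ± 0.902 (SD, n = 4), a difference of −9.92 points (SE 2.51, limma), and of −7.05 points without control 7. In the authors' deposited table this exon has a corrected DRIMSeq p of 0.069, above the stricter threshold of 0.05.

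In the longest coding transcript of Ehmt2 (ENSMUSG00000013787.15) this is exon 6 of 27, and other transcripts number it differently. Its 156 nucleotides encode residues 289 to 340 of 1263, far ahead of the SET domain motif Asn-His-x-Cys at residues 1165 to 1168. The 52 codons include 15 for the acidic residues aspartate and glutamate and 4 for the basic residues lysine and arginine. Skipping would keep the frame and leave 1211 residues. Inclusion is annotated in 4 M21 transcripts and the skipping junction in 0, and the authors' table likewise classes this event, alone among the 5, as using a junction outside its annotation. Of the 15 junctions of the 5 events, the other 14 are M21 introns.

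Kdm5a exon 5 had nearly equal PSI values of 89.80%, 89.47% and 90.24% in control libraries 1, 2 and 7. Mutant libraries 3, 4 and 5 were at 100%, the upper limit of the scale, and mutant 9 was at 93.18%. All mutants lay above all controls, by at least 2.94 points. Group means were 89.8% ± 0.386 (SD, n = 3) and 98.3% ± 3.41 (SD, n = 4), a difference of 8.46 points (SE 2.25, limma), and the corrected DRIMSeq p of the authors' deposited table is 0.0739, the highest of the 5. At unknown depth, a PSI of 100% says only that no skipping read was counted.

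This exon of ENSMUSG00000030180.15 is the fifth of 28 in the longest coding transcript, with 135 nucleotides for residues 180 to 224 of 1690. It lies between the DNA-binding ARID domain and the first PHD zinc finger, whose cysteine and histidine pattern spans residues 296 to 322, and ahead of the JmjC domain, whose iron-binding His-Ile-Glu is at residues 483 to 485. It encodes 9 basic and 7 acidic residues and no cysteine. Skipping would keep the frame and leave 1645 residues, and 1 transcript with the skipping junction, Kdm5a-209, is annotated as coding but incomplete at both ends.

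Kdm5c had a pair of listed exons, 3 and 22 of the 26 in transcript Kdm5c-202 (ENSMUSG00000025332.14). Exon 3 had PSI values of 97.37%, 93.06% and 100% in control libraries 1, 2 and 7, and of 87.25%, 82.81%, 82.88% and 91.04% in mutant libraries 3, 4, 5 and 9. The closest libraries of the groups, control 2 and mutant 9, were 2.02 points apart. Group means were 96.8% ± 3.50 (SD, n = 3) and 86.0% ± 3.95 (SD, n = 4), a difference of −10.8 points (SE 2.78, limma; corrected DRIMSeq p of the authors' deposited table, 0.0389).

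Exon 22 of Kdm5c had PSI values of 92.22%, 88.30% and 100% in control libraries 1, 2 and 7. Mutant libraries 3, 4, 5 and 9 had 75.47%, 62.96%, 62.59% and 76.74%, so the groups were 11.6 points apart at their closest. Group means were 93.5% ± 5.96 (SD, n = 3) and 69.4% ± 7.71 (SD, n = 4). The difference of −24.1 points (SE 4.55, limma) is the largest of the 5 in absolute size, the 19th of 173 among listed cassette exons, and its corrected DRIMSeq p of 0.000633 (authors' deposited table) is the lowest of the 5. In terms of skipping, this exon was left out at a mean of 6.49% in the controls and 30.6% in the mutants.

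Libraries took nearly the same order for both Kdm5c exons. Control 7 was highest and control 2 lowest among the controls for both, and mutant 9 was highest, then mutant 3, with mutants 4 and 5 lowest and nearly equal. Both exons belong to one gene, so these are not independent observations, and PSI values do not show whether the same RNA molecules lack both exons.

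The 123 nucleotides of Kdm5c exon 3 encode residues 77 to 117 of 1554, which fall in the ARID domain. Skipping keeps the frame, and the annotated transcript Kdm5c-201, with 1510 residues, equals Kdm5c-203 without this exon. Exon 22 has 138 nucleotides for residues 1101 to 1146, in the part of the protein after the JmjC domain (His-Ile-Glu at residues 514 to 516). Its skipping would leave 1508 residues, and the skipping junction is in 1 annotated transcript, the incomplete coding transcript Kdm5c-206. Kdm5c has a close copy on the Y chromosome, Kdm5d. Exon 3 matches Kdm5d at 81.3% of its bases and exon 22 at 86.2%, with longest identical stretches of 17 and 20 nucleotides. Whether reads of Kdm5d entered these values was not tested, and the labels used here do not give the sex of the mice.

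**Figure D2:**
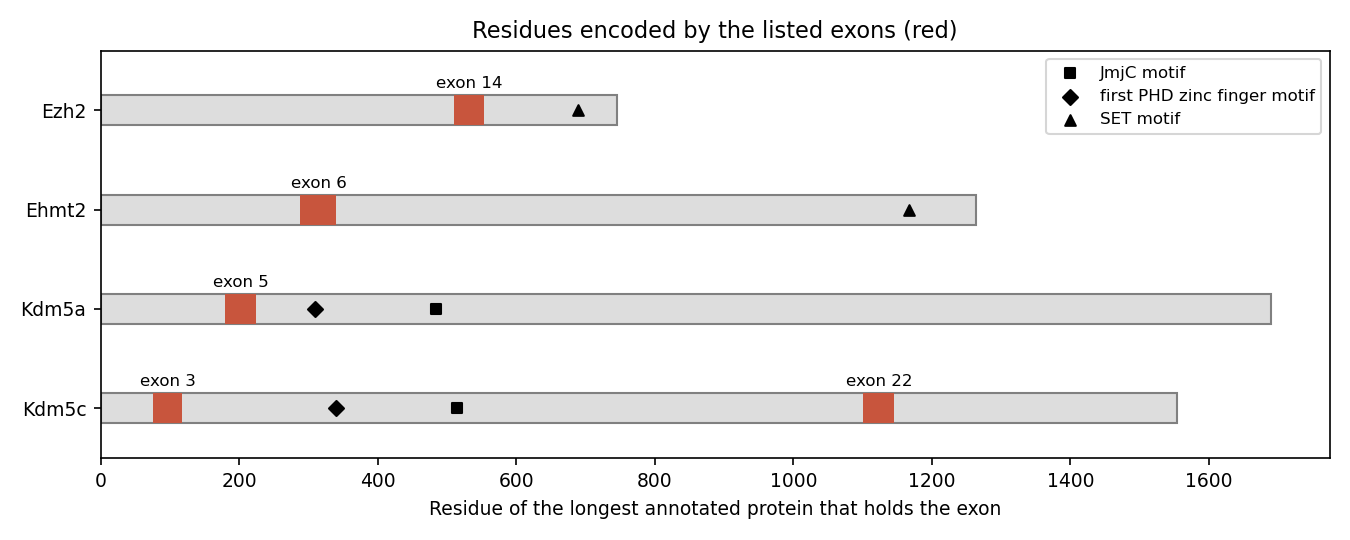
Proteins drawn as bars along their residues, for the longest complete annotated protein that holds each exon, with the residues of the listed exons in red and motifs found by pattern search in black. Each exon lies outside the SET and JmjC motifs, and only in Ezh2 does it lie in the region next to the SET domain.

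The KDM5 family members thus differed in direction, with the Kdm5a exon higher and both Kdm5c exons lower in the mutants, but the exons are not counterparts of one another. In a protein alignment of Kdm5a with Kdm5c (55.1% identity over 1497 aligned residues), Kdm5a exon 5 aligns with residues 175 to 219 of Kdm5c, past the end of the residues from exon 3. Identical residues were 10 of 40 aligned over Kdm5a exon 5, 31 of 41 over Kdm5c exon 3 and 15 of 46 over Kdm5c exon 22. The ARID residues of Kdm5c exon 3 were thus more conserved between the proteins than those of the other exons.

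All 5 exons have a length divisible by 3, so that skipping removes 41 to 52 residues, 2.64% to 5.63% of the protein, without a shift of frame. Among the other 168 listed cassette exons, 97 have such a length (57.7%). With 5 exons in 4 genes this is a description only. Exon lengths ran from 123 to 156 nucleotides, and GC content from 43.7% in Ezh2 to 62.3% in Kdm5c exon 22. Kdm5c exon 22 is flanked by short introns of 162 and 180 nucleotides, while the intron before Kdm5a exon 5 has 6547.

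The word GGAGA occurs 4 times in the Ehmt2 exon and once in each Kdm5c exon, the exons with lower inclusion in the mutants. It is absent from the Ezh2 and Kdm5a exons, where inclusion was higher. GAAGAA, a second purine-rich word of SRSF1 binding studies, is in none of the 5. Both words were searched on the RNA strand only, and may overlap each other. Among M21 internal coding exons of exactly the same length, GGAGA is in 29.2% (Ezh2), 32.2% (Ehmt2), 29.5% (Kdm5a), 26.7% (Kdm5c exon 3) and 30.7% (Kdm5c exon 22), and GAAGAA in 13.7% to 15.1%. Among the other listed cassette exons, GGAGA is in 39 of 144 with lower inclusion in the mutants and in 1 of 24 with higher inclusion. GAAGAA is in 11 of the 144 and 6 of the 24. The words thus fall in opposite directions, as GGAGA has the larger share among exons with lower inclusion and GAAGAA among those with higher inclusion. The words were chosen with earlier results of these data known, and the listed exons were selected on the same contrast. Nothing is therefore read from how the words fall by direction, and a link to SRSF1 was not tested. A match to these letters does not show that the protein binds there, and its absence does not show the reverse.

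**Figure D3:**
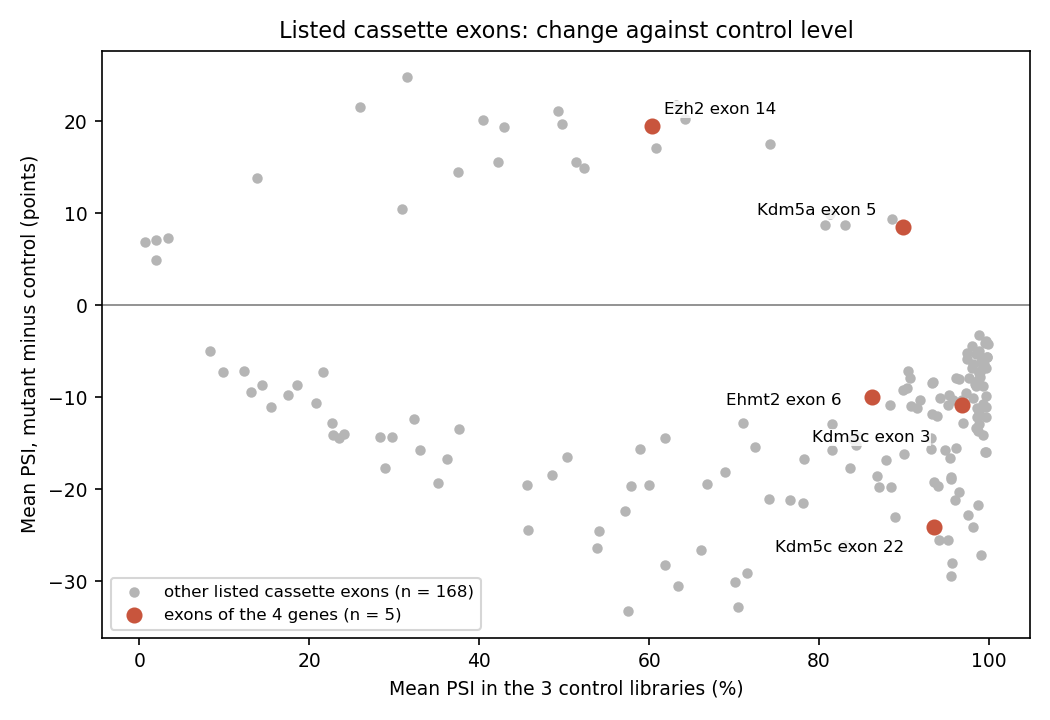
Difference of mean PSI, mutant minus control, in points, against the mean control PSI in percent for the 173 listed cassette exons, with the 5 exons of the 4 genes in red. Ezh2 exon 14 lies at an intermediate control level, the other 4 lie above 86%, and few exons of any gene with so high a control level lie above 0.

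The targeted gene served as a limited check of the labels. Its event too was listed for a difference between the groups, so only the direction could be compared with the labels. Its listed event counts reads that join Srsf1 exon sequence to the downstream gene Vezf1, past the rest of Srsf1 (chromosome 11, 88048033 to 88073056). PSI was 7.97% ± 2.12 (SD, n = 3) in the controls and 62.9% ± 17.3 (SD, n = 4) in the mutants. The junction past the rest of Srsf1 was thus higher in the group labelled mutant. Mutant libraries 3, 4, 5 and 9 had 65.60%, 44.74%, 85.52% and 55.83%. Their departures from the control mean in the same order were 11.5, 23.0, 25.8 and 17.4 points for Ezh2 exon 14 and −18.04, −30.5, −30.9 and −16.8 points for Kdm5c exon 22. Mutant 5 was thus farthest from the controls for both exons and had the highest Srsf1 value, while mutant 4 was second for both and had the lowest. This order did not hold for the other 3 exons. Mutant 4 was farthest from the controls for Kdm5c exon 3, just ahead of mutant 5, and came after mutants 5 and 3 for Ehmt2 exon 6, while mutants 3, 4 and 5 were equal for Kdm5a exon 5. With 4 libraries, no correlation was computed.

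Single libraries also differed across the table. Mutant 9 was the mutant nearest to the control mean in 4 of these 5 events, with Ezh2 as the exception, and in 48.9% of all 278 events. Control 7 was the control farthest from the mutant mean in 4 of the 5 events, with Kdm5a as the exception, and in 44.6% of all events. The median absolute departure from the control mean over all events was 10.6 points in mutant 9, 12.1 in mutant 3, 14.2 in mutant 5 and 16.7 in mutant 4. The part of such library differences in the results was not tested.

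**Figure D4:**
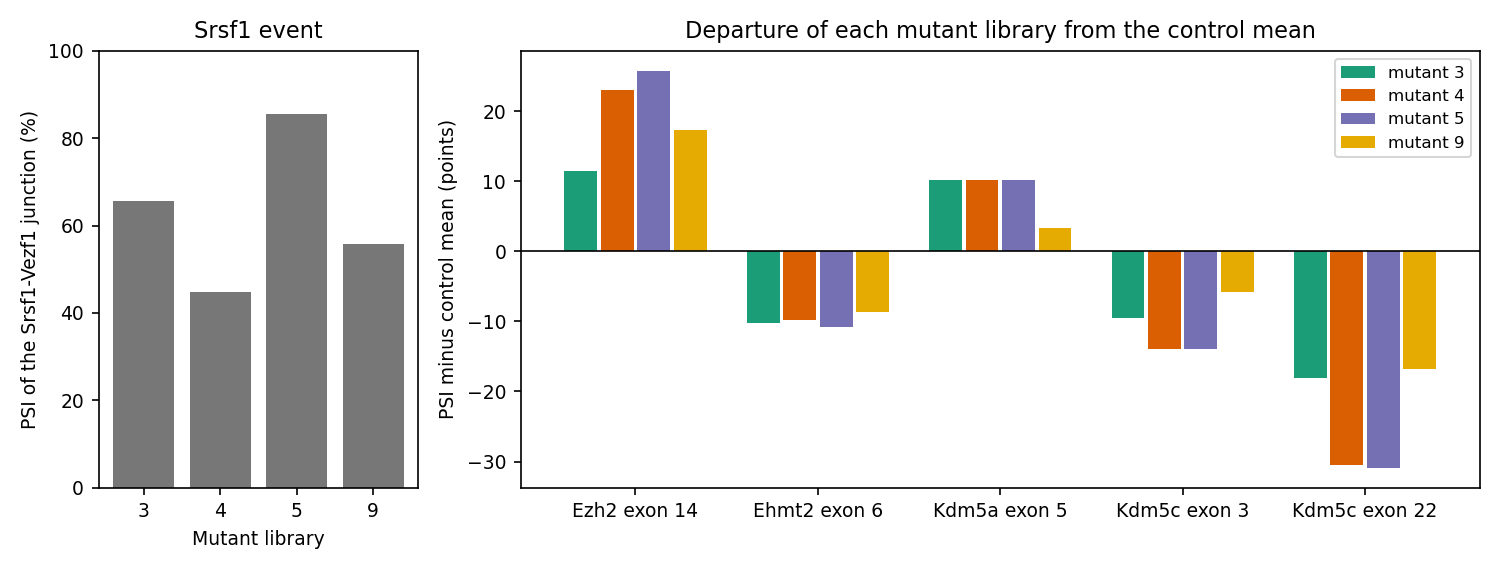
Left, PSI in percent of the Srsf1 to Vezf1 junction in each mutant library; right, PSI of each mutant library minus the control mean, in points, for the 5 exons. Every mutant library departs in the same direction for a given exon, which follows from groups that do not overlap. Mutant 4, lowest for the Srsf1 event, departs strongly in Ezh2 and Kdm5c.

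Of 81 other genes of histone methyltransferases, demethylases and their partners on a fixed list, among them Ezh1, Ehmt1, Kdm5b and Kdm5d, only Setd3 is in the table. SETD3 has a SET domain and was first studied as a histone methyltransferase, but is now known to methylate actin. One Setd3 exon of 149 nucleotides had a mean PSI of 64.3% ± 3.14 (SD, n = 3) without and 84.5% ± 3.30 (SD, n = 4) with tamoxifen, and another of 59 nucleotides had 88.9% ± 7.87 and 65.97% ± 9.94. Neither length is divisible by 3, unlike those of the 5 exons above, and the groups did not overlap in either. A gene outside the table cannot be called unchanged.

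Exons of other genes with the most similar PSI were found by the mean absolute difference over the 7 libraries, among listed cassette exons. For Ezh2 exon 14 these were in Pja2, which encodes a ubiquitin ligase (6.26 points), and Setd3 (6.41 points). For Ehmt2 exon 6, the exon reported here is in Mcrs1 (4.07 points). For Kdm5a they were in Tada2a, which encodes an adaptor of histone acetyltransferase complexes (2.13 points), and Rcn2 (5.69 points). The Rcn2 exon differs in direction, with 98.9% in the controls and 95.6% in the mutants, so closeness here is one of level. For Kdm5c exon 3 they were in Nt5c3b (2.00 points) and Zmym3 (2.43 points), and for exon 22 in Pla2r1 (3.23 points) and Sh3pxd2a (3.66 points).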

How the data were processed

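Libraries were prepared from total RNA with a TruSeq kit, per the labels' protocols. The submitters' processing notes name Bowtie, TopHat, SAMtools, DESeq and mm9 without versions, and the series text names JuncBASE. The authors deposited PSI as a percent per library, group medians, their difference in points, and p-values of JuncBASE (test not given in the sources used here) and DRIMSeq, per the file headers.

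Of 863 distinct junctions, 650 (75.3%) are GENCODE M21 introns, and 0 after a shift of 1000 bases, so coordinates were read as GRCm38. Groups and replicate numbers come from sample titles. Differences are of group means, with the SE from limma 3.58.1 (R 4.3.3) over the 278 events. Whether these SEs hold for PSI at its upper limit, or for groups of unequal spread, was not tested. The limma fit gives no p here, since the table was selected on the same contrast. Exons were placed in the longest complete coding M21 transcript that holds them, translated and aligned with Biopython 1.88. Named were all events of the 4 genes, the 2 closest cassette exons of other genes, the Srsf1 event and listed genes of the fixed list. One of the closest exons is not reported here. The members, lists and motifs were chosen with earlier results of these data known. Alternatives were medians, the logit scale (offset 1 point), a DRIMSeq threshold of 0.05, 1 event per gene and leaving out each library.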

Additional observations from a re-analysis of the deposited data

Results flagged for a closer look

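The PSI of Kdm5a exon 5 in mutant library 9 was 93.18%, while mutant libraries 3, 4 and 5 were all at 100%. Its distance to the nearest other mutant equals the whole range of the group, which is above the 95% critical value of Dixon's ratio for 4 libraries. Of the 6 events examined this way (the 5 exons and the Srsf1 event), 1 had such a library. The usual chance rate of about 1 in 20 per event does not apply to it. The 3 other values are tied at the upper limit of PSI, so any value below 100% in mutant 9 would have been flagged. The depth of each library is unknown.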

How the results depend on the processing

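All 45 recomputed differences (9 alternatives for each of the 5 exons) kept their direction. This was fixed in advance, because the groups do not overlap in any of the 5 exons. The differences moved by less than 1 SD between libraries, which is a wide bound when a single library is left out. When each of the 7 libraries was left out in turn, the difference lay between 13.7 and 23.1 points for Ezh2 exon 14, −11.5 and −7.05 for Ehmt2 exon 6, 7.89 and 10.2 for Kdm5a exon 5, −12.7 and −9.22 for Kdm5c exon 3, and −26.7 and −20.8 for Kdm5c exon 22. Groups stayed apart in 5 of 5 events each time, but leaving out a library cannot make separate groups overlap, so nothing is read from this. Requiring DRIMSeq's corrected p to be below 0.05 left 3 events with separate groups, because Ehmt2 and Kdm5a did not reach it. The share of listed events with separate groups was 98.1% under that threshold and 96.1% with 1 event per gene. No paired analysis was possible because the labels used here do not pair control with mutant libraries. Depth per event is unknown, which limits every value, above all those at 100%.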
